A study of Mus musculus with 3 samples.

Results

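Chromatin immunoprecipitation followed by sequencing (ChIP-seq) with an Arid1a antibody was compared between islets of control mice and islets of Arid1a-knockout mice. The regions described are the called peaks of these 2 libraries on chromosomes 1 to 19 and X, 606 of the 870 peaks in the series. Of these, 241 of 250 came from the control list and 365 of 384 from the knockout list. The remaining 9 and 19 peaks lay on chromosome Y, mitochondrial DNA or unplaced contigs. A peak was called shared where it overlapped a peak of the other list by at least 1 bp, and control-only or knockout-only otherwise.

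Both libraries were made from primary islet cells, the endocrine clusters of the pancreas, which were pooled at collection, fixed with formaldehyde and sonicated. The control genotype is written con in the labels and the knockout arid1a ko, and the mice are described as lacking Arid1a expression in the pancreas (named PCAL/L). The Cre driver and the age, sex and number of animals are not given in the sources used here. The antibody, from Abnova, was the same in both genotypes, and each genotype had 1 library, so values carry no spread between replicates and the genotypes were not tested against each other. Vessel and immune cells, which islet preparations also contain, are not of pancreatic lineage. Peaks do not measure expression, so neither the loss of Arid1a nor the islet identity of the samples could be checked, and no peak lay in or nearest to Arid1a itself.

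Arid1a is the DNA-binding, AT-rich interaction domain subunit of the BAF form of the SWI/SNF complex, which uses ATP to slide or evict nucleosomes. BAF complexes are known to act at promoters and at distal enhancers, where they keep DNA open for transcription factors. In the pancreas, Arid1a is known as a tumour suppressor, and SWI/SNF ATPases are known to work with Pdx1, a transcription factor of pancreas formation and of beta cells. A ChIP signal that remains in cells lacking the antibody's target serves as a background for the signal in cells that have it, which is the question that the knockout library addresses.

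Few called regions reached a promoter, and examples of each class are printed here so that the bases under the peaks can be read. Promoter windows ran from 250 bases before to 50 bases after each RefSeq gene start (GRCm38.p6, the coordinates of mm10), with the start at position 0. Among 32619 windows searched, 7 of 241 control peaks and 7 of 365 knockout peaks overlapped at least 1, and 2 of these control peaks were shared. The part of the sequence that the windows cover was not computed, so whether these counts are low or high for it was not tested. The Neurog3 window (chr10:62132840-62133139, plus strand) is shown because the control peak of highest fold ended 5 bases short of it; its capitals mark the reverse complement of a CCAAT box, and it was covered by no peak. In the other sequences capitals mark the bases under the peak: Prmt3 (chr7:49778108-49778407, plus strand), Slc39a11 (chr11:113650043-113650342, minus), Gm9758 (chr5:14914840-14915139, minus), Elmod2 (chr8:83332437-83332736, minus), Tmem267 (chr13:119488223-119488522, plus) and Amigo2 (chr15:97247238-97247537, minus). All are written 5′ to 3′ on the strand of the gene.
Neurog3 (256 bp from the control-only peak): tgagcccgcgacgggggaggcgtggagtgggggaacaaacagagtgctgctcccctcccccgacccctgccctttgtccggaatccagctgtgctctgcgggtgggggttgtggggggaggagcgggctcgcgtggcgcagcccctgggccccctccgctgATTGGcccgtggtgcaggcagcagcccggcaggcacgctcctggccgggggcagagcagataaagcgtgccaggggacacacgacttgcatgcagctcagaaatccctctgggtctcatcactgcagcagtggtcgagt
Prmt3 (control-only): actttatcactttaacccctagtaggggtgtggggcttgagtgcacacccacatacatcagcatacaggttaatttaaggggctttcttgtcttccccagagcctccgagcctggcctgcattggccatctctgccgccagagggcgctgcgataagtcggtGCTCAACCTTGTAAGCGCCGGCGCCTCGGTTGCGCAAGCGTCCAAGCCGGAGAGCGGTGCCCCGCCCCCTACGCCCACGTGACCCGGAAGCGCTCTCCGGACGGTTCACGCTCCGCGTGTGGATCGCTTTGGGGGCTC
Slc39a11 (control-only): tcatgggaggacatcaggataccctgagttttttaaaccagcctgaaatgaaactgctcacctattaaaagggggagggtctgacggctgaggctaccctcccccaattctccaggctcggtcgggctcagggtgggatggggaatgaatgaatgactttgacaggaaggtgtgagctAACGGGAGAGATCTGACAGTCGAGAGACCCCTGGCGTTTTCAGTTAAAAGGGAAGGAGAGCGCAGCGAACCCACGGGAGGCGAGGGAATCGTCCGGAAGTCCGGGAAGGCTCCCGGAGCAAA
Gm9758 (shared, control peak): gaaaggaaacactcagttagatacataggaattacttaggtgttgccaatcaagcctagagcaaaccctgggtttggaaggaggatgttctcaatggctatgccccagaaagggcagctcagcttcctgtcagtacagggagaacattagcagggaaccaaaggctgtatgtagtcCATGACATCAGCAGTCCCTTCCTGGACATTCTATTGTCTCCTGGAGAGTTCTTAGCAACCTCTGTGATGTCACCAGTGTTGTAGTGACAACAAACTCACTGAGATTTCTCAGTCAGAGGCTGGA
Elmod2 (knockout-only): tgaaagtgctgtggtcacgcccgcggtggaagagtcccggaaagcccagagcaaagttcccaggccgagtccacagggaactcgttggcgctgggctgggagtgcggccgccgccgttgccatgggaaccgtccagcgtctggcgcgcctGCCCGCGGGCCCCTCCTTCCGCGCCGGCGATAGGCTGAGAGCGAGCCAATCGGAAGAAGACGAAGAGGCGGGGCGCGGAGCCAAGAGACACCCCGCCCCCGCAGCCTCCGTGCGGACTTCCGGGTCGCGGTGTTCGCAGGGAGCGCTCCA
Tmem267 (knockout-only): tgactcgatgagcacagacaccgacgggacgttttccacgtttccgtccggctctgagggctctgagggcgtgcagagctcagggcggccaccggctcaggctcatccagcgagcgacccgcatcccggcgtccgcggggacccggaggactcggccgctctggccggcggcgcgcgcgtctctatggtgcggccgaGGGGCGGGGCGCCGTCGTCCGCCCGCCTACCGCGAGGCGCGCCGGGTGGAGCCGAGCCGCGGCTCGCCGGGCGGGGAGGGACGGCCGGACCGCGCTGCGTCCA
Amigo2 (knockout-only): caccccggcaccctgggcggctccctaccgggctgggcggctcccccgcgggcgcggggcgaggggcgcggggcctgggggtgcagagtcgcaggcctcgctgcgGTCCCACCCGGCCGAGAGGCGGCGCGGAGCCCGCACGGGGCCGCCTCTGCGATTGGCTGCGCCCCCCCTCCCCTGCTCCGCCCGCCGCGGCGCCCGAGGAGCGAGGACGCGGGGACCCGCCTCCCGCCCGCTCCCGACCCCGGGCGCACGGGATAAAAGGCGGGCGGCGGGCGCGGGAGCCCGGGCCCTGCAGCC

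The control-only windows belonged to Prmt3, a protein arginine methyltransferase gene covered from -88 to 49, and Slc39a11, a zinc transporter gene covered from -72 to 49. A further 2 windows belonged to the predicted gene Gm40369, under peaks with high no-IP background (17.8 and 11.1 fragments), and 1 to Gm10406, of which 9 bases were covered. The Prmt3 window held 24 CG dinucleotides at 61.7% G+C and the Slc39a11 window 14 at 55.3%. The median over all windows was 7 CG dinucleotides and 53% G+C. Knockout-only peaks, 5 in number, overlapped 9 windows because some lie between divergent genes. These windows held 18 to 50 CG dinucleotides at 64.7% to 83.3% G+C, so each was above the median of all windows on both measures. They included Elmod2, which encodes a GTPase-activating protein (covered from -100 to 49, 36 CG), Tmem267, a membrane protein gene (-53 to 49, 50 CG), and Amigo2, a cell adhesion gene (-145 to 49, 46 CG). The shared windows, Gm9758 and Gm3115, held 0 and 2 CG dinucleotides at 47% and 49.7% G+C. Both peaks at Gm9758 covered the start, from -74 in control and from -205 in knockout. Several of these promoter peaks were weak, where the smallest pileup of a list was 9 fragments in control and 8 in knockout. Prmt3 had 13 fragments (fold 4.52), Slc39a11 12 (4.75), Elmod2 10 (4.88) and Amigo2 13 (6.22). Tmem267 had 36 (4.14) over a background of 7.93, and Gm9758 had 18 (4.58) in control and 20 (6.64) in knockout.

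A few core promoter motifs, each given by its letters, were searched on both strands of the whole window, including bases outside the peak. The GC box GGGCGG occurred in 9 of 9 knockout-only windows, 3 of 5 control-only windows and 0 of 2 shared windows, against 35.9% of all promoter windows. CCAAT occurred in 4 of 9, 2 of 5 and 1 of 2 windows in the same order, against 37.6%. The E-box CACGTG was found in 2 of the 5 control-only windows and in no window of the other classes, against 7.20%, and TATAAA in none of the 16, against 13.7%. Windows of divergent genes share bases, so they are not independent counts, and a match describes the letters only. The counts by class were added after the peaks over promoters were seen.

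Of the control peaks, 94 of 241 (39.0%, exact Clopper-Pearson 95% interval 32.8% to 45.5%) overlapped a knockout peak, and 147 were control-only. Of the knockout peaks, 95 of 365 (26.0%, 21.6% to 30.8%) overlapped a control peak, and 270 were knockout-only. The overlaps formed 95 pairs. The intervals take each peak as an independent draw and hold no error between animals or libraries. A peak missing from a list is a place that did not pass the caller, not a measured level of 0.

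Shared sites had more signal than list-only sites in both genotypes. In control the median pileup, the number of ChIP fragments over the summit, was 27 (order-statistic 95% interval 24 to 31) at shared peaks and 16 (14 to 18) at control-only peaks. In knockout it was 22 (20 to 25) at shared and 13 (12 to 14) at knockout-only peaks. The pileup intervals of the classes did not overlap within either list. Shared peaks were also longer, with medians of 485.5 bp against 431 bp in control and 451 bp against 364 bp in knockout. The length intervals overlapped in control (457 to 539 and 410 to 463) but not in knockout (410 to 503 and 353 to 372). The authors' fold over no-IP had medians of 5.61 against 4.69 in control and 5.66 against 4.93 in knockout. The fold intervals overlapped in control (4.86 to 6.17 and 4.55 to 4.93) but not in knockout (5.18 to 6.56 and 4.81 to 5.14). Without the run of peaks between Hrh1 and Atg7 described below, the control fold medians were 4.86 and 4.69. The no-IP background itself was higher at shared sites, at 3.15 against 2.10 fragments in control and 2.09 against 1.55 in knockout. In control the background intervals of the classes met at 2.62. A stronger peak passes a caller more readily in both lists, so class and pileup are not independent of each other.

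**Figure D1:**
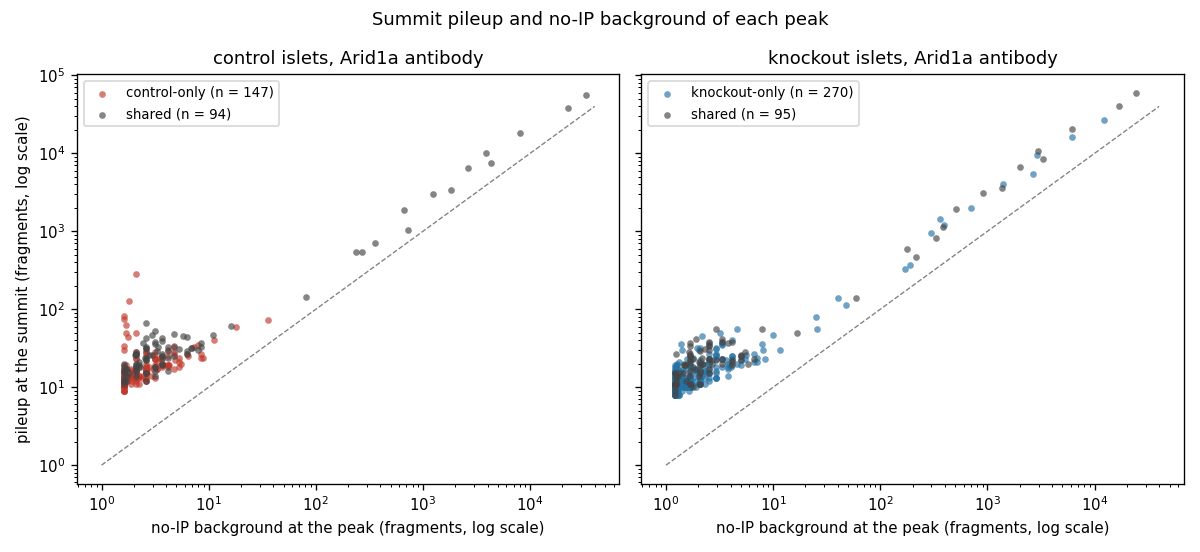
Pileup at the summit (fragments, log scale) against the recovered no-IP background (fragments, log scale) for each peak of the control and knockout lists, coloured by class; the dashed line marks equality. Shared peaks reach the highest backgrounds in both lists, and the Neurog3 peak, with 285 fragments over 2.08, stands highest among control-only peaks.

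Sites with a high no-IP background were shared more often than the rest. A no-IP background of 10 or more fragments was found at 16 of 94 shared control peaks and 3 of 147 control-only peaks, and at 15 of 95 shared knockout peaks and 16 of 270 knockout-only peaks. Of control peaks with such background, 16 of 19 (84.2%, 60.4% to 96.6%) were shared, against 78 of 222 (35.1%, 28.9% to 41.8%) of those below it. In knockout 15 of 31 (48.4%, 30.2% to 66.9%) were shared, against 80 of 334 (23.95%, 19.5% to 28.9%). The extreme was a stretch of 38.2 kb on chromosome 9 (3000022 to 3038245), nearest to Alkbh8, a tRNA-modifying enzyme gene. The shared control peaks of the stretch lay 298579 to 334219 bp from that gene. The stretch held 9 control and 15 knockout peaks, of which 9 and 9 were shared. Median backgrounds there were 1808 and 903 fragments and median folds 2.33 and 3.30. It thus supplied 9 of the 16 shared control peaks and 9 of the 15 shared knockout peaks with background of 10 or more. Peaks of 1 stretch are not independent draws, as the intervals take them to be. The shares without this stretch were not computed, so the difference may rest largely on it, above all in knockout.

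The share of peaks found in the other genotype varied with rank. Peaks with background under 10 were ordered by fold within each list. In control, 1 of the first 10 was shared, then 13 of the next 15, 15 of the next 25, 24 of the next 50, 9 of the next 50 and 16 of the last 72. In knockout, 5 of the first 10 were shared, then 10 of the next 15, 9 of the next 25, 20 of the next 50, 9 of the next 50 and 27 of the last 184. The counting intervals of the control list were 0.253% to 44.5% for ranks 1 to 10 and 59.5% to 98.3% for ranks 11 to 25. The interval of ranks 1 to 10 also contained the shares of ranks 101 to 150 (18%) and from 151 (22.2%), so the highest and the lowest folds were not separated. In the knockout list the corresponding intervals, 18.7% to 81.3% and 38.4% to 88.2%, overlapped.

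**Figure D2:**
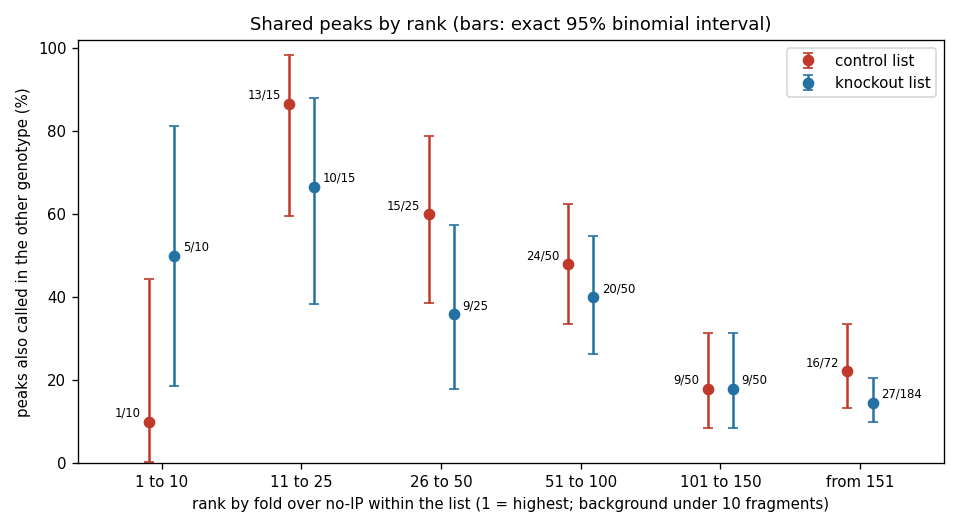
Percent of peaks shared with the other list by rank of fold within the list, for peaks with no-IP background under 10; bars are exact 95% intervals. In control 10.0% of ranks 1 to 10 and 86.7% of ranks 11 to 25 were shared, and in knockout 50.0% and 66.7%.

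The leading control-only peak lay upstream of Neurog3, whose product commits pancreatic progenitors to the endocrine lineage. It spanned 993 bp (chr10:62131842-62132834) and ended 256 bp before the start of the gene, just outside the promoter sequence printed above. Its pileup was 285 fragments over a background of 2.08, a fold of 92.7. Divided by the depth ratio of the libraries, which was 1.34 by their smallest backgrounds (1.64 in control and 1.23 in knockout), that pileup would be 213 fragments at knockout depth. The nearest knockout peak was 9499 kb away. Its summit lay at 88.2% of its length, toward the gene.

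The next control-only peak by fold lay inside a gene. Mocos, which encodes molybdenum cofactor sulfurase, had 127 fragments and a fold of 45.3 within 340 bp (chr18:24677131-24677470). The nearest knockout peak was 2576 kb from it.

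Intergenic peaks of the control-only top 10 were nearest to Kif6, a kinesin gene (31.2 kb, 62 fragments, fold 23.5), Cp, which encodes the copper carrier ceruloplasmin (89.9 kb, 50 fragments, fold 18.9), and Kcnj5, which encodes an inward-rectifier potassium channel (10.8 kb, 44 fragments, fold 16.2). Another 3 were nearest to 1700010I14Rik (49 fragments, fold 16.1), Foxd1, a forkhead transcription factor gene (34, 13.3), and Pls3, an actin-bundling protein gene (30, 11.8). The Pls3 peak was the only one of the 10 with a knockout peak within 10 kb, at 8.93 kb. All 10 would still reach a Poisson p of 1e-05 against their background at knockout depth, as would 120 of 147 control-only peaks (81.6%). Scaled up to the greater control depth, 270 of 270 knockout-only peaks would pass. They had already met this limit at their own lower depth (smallest −log10 p of the knockout list 5.01), so that count was near fixed in advance. It cannot be set against the count of control-only peaks. This measure was chosen after the values were seen.

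Knockout-only peaks had no counterpart to the folds at Neurog3 and Mocos. The highest was 15.6, at 36 fragments, 1217 kb from Grik2, a kainate receptor gene (chr10:47876471-47876953). Cd96, a receptor of T cells and natural killer cells, had a peak inside the gene with 45 fragments and a fold of 14.5 (chr16:46078344-46078718). Other members of this top 10 were nearest to Dynlrb1, a dynein light chain gene (5489 bp, 30 fragments, fold 12.9), Cylc2, a sperm head protein gene (49, 11.96), Jrkl (32, 11.2) and Pgk2, the testis form of phosphoglycerate kinase (5516 bp, 37, 10.8). A further 3 were nearest to Gprin3 (30, 10.2), the olfactory receptor gene Olfr1153 (55, 10.0) and the minor spliceosome gene Rnpc3 (21, 9.47). Of the 10, 1 lay inside a protein-coding gene.

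At shared sites the ratio of knockout to control signal turned with the depth scale. Each pileup was divided by the smallest no-IP background of its list. Over 95 pairs the median ratio of knockout to control was 1.14 (order-statistic 95% interval 1.03 to 1.23), with 63 pairs above 1. Unscaled, it was 0.852, with 61 of 95 pairs below 1, so its direction rests on the depth scale. The median ratio of the no-IP backgrounds at the same sites was 0.741, against 0.749 for the scale used. A change of more than 2-fold toward knockout was seen in 3 pairs (3.16%) and toward control in 0 (0%) on the scaled values. Unscaled, 1 pair was past 2-fold in each direction (1.05% and 1.05%), and 2 more had exactly 2-fold fewer fragments in knockout. Among 79 pairs with background under 10, the median was 1.05 (0.989 to 1.17), and among the 16 others 1.43 (1.37 to 1.48). Summits of a pair lay a median of 46 bp apart, with 77 of 95 within 200 bp.

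**Figure D3:**
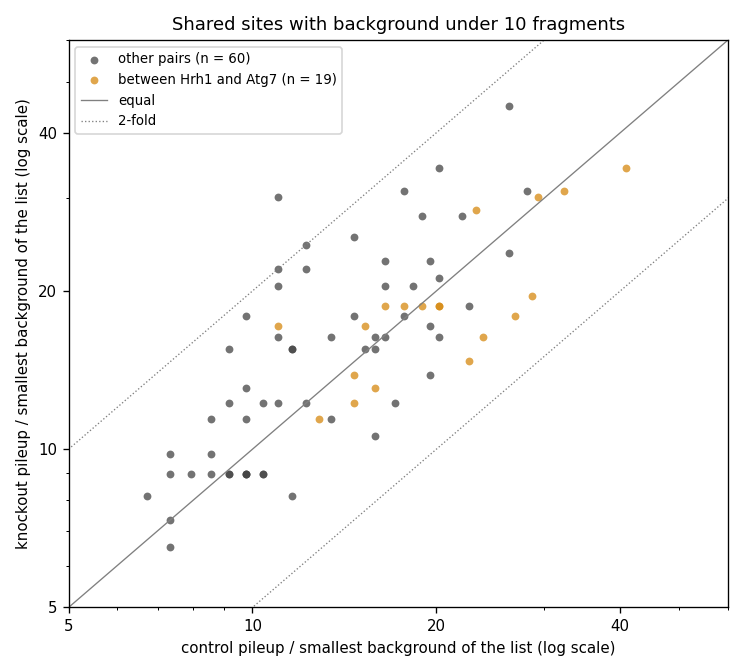
Pileup of each shared pair with background under 10, divided by the smallest background of its list, in control (horizontal, log scale) and knockout (vertical, log scale). Points lie on both sides of the line of equality, 47 above and 32 below it, and 3 lie at or past the upper 2-fold line.

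The pair with the highest ratio was 170 kb from Trps1, a GATA-type transcription factor gene, with 18 fragments in control and 37 in knockout. Its depth-scaled ratio was 2.74 (exact conditional 95% interval 1.52 to 5.12, counting error only) and the summits were 3 bp apart. Next were sites nearest to Cypt1 (20 and 30 fragments, ratio 2.00), inside 2610008E11Rik (18 and 27, 2.00), inside the kinase anchor gene Akap9 (18 and 25, 1.85) and nearest to the protocadherin gene Pcdh19 (16 and 22, 1.84). The lowest ratios were 0.650 (37 and 18 fragments, nearest to Hrh1), 0.668 (44 and 22, Atg7), 0.668 (26 and 13, Gm32966), 0.682 (47 and 24, Hrh1) and 0.685 (39 and 20, Atg7). So 4 of the 5 lowest came from a single stretch of chromosome 6. With the depth scale taken as exact, the counting interval excluded 1 in 6 of 79 pairs, all higher in knockout. Unscaled, it excluded 1 in 1 pair higher and 6 pairs lower in knockout. These are 79 separate 95% intervals without correction for their number, so some may exclude 1 by counting error alone. The pairs higher on the scaled values include Crp, which encodes C-reactive protein (43 and 55 fragments, ratio 1.71, 1.13 to 2.61).

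That stretch lies between Hrh1, the histamine H1 receptor gene (chr6:114397936-114483298), and Atg7, the E1-like enzyme of autophagosome formation (chr6:114643127-114860604). The gap between the genes is 159.8 kb. It contained 30 control peaks, 12.4% of that list, and 20 knockout peaks, 5.48%. Of these, 19 in each list were shared, 11 were control-only and 1 was knockout-only. The tallest peak of both lists there was 77.5 kb past the end of Hrh1, with 67 fragments (fold 18.8) in control and 42 (fold 14.7) in knockout. The next, at 81.9 kb, had 53 (fold 13.0) and 38 (fold 11.1). Raw pileup was lower in knockout at 18 of 19 pairs, and 13 of 19 stayed below 1 after scaling, with a median of 0.931 (0.822 to 1.06). At the 60 other pairs with background under 10 the median was 1.14 (1.01 to 1.24), with 19 below 1. The intervals overlap, and the pairs of 1 stretch are not independent.

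**Figure D4:**
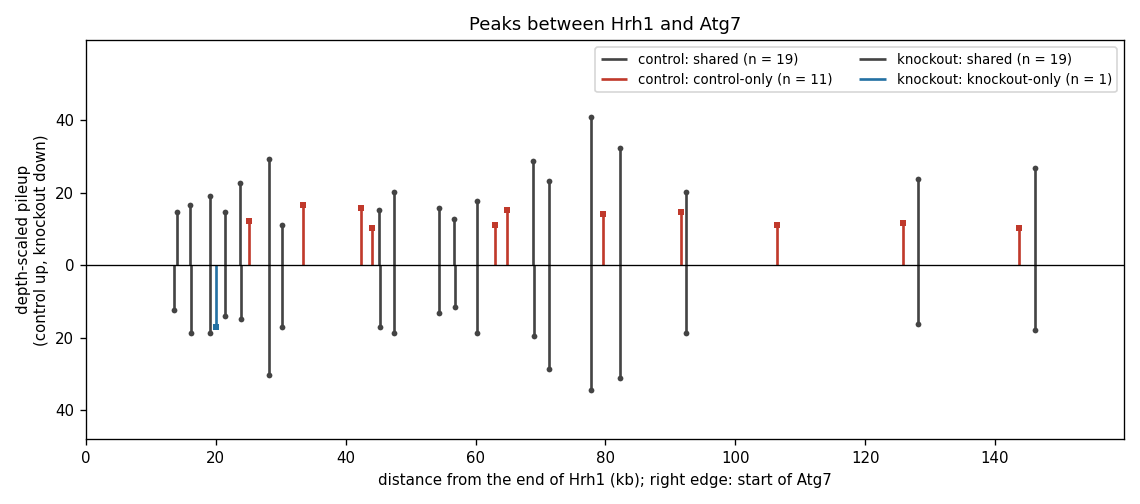
Pileup of each peak divided by the smallest no-IP background of its list, by distance of its summit from the end of Hrh1 (kb), with control drawn upward and knockout downward. The tallest peaks, at a scaled pileup of 40.9 in control and 34.3 in knockout, stand at 77.8 kb, and 11 control peaks have no knockout partner.

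The 11 control-only peaks of the gap had 17 to 27 fragments and folds of 3.85 to 6.63. The shared control peaks there had 18 to 67 fragments, so the 2 groups overlapped in height. The single knockout-only peak, 19.8 kb from Hrh1, had 21 fragments and a fold of 6.28, and the closest control peak ended at 19.3 kb.

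The other runs with most control peaks lay in tandem gene families. On chromosome 5 (15458680 to 15690733), near Speer4c, Speer4d and Gm21149, 18 control and 17 knockout peaks were called, of which 6 and 6 were shared, with a median pair ratio of 1.07. On chromosome 14 (4070133 to 4207464), near Gm2974, Gm3115 and Gm32966, there were 10 control and 9 knockout peaks, of which 5 and 6 were shared, with a median pair ratio of 0.864. Near-identical gene copies share reads, so positions within such families are uncertain. When peaks of both lists within 100 kb were joined, 340 regions resulted. Of these, 60 held peaks of both genotypes, 74 held control peaks alone and 206 held knockout peaks alone.

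Genes of pancreatic cell types and of related functions, in 10 lists, were set beside all protein-coding genes. Nearest genes numbered 148 for control peaks (0.684% of 21627 protein-coding genes) and 272 for knockout peaks (1.26%), and 75 genes were in both sets, 50.7% of the control and 27.6% of the knockout set. Of the 199 listed genes, 5 were nearest to a control peak (2.51%), 8 to a knockout peak (4.02%) and 3 to both. Peaks inside or within 5 kb were found for 2 of the 199 in control (1.01%) and 3 in knockout (1.51%), against 0.231% and 0.407% of all genes. The lists were drawn up with earlier results of these data known and hold genes already seen near peaks, so these shares are not independent of the data.

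Among 30 beta cell genes, Pdx1 and Ins1 (6.67%) were nearest to peaks of both lists. Pdx1 (chr5:147270097-147275848) had a shared site 3196 bp upstream, with 15 fragments in each list and folds of 5.67 in control and 6.89 in knockout. At equal raw pileup the depth-scaled ratio was 1.34, with a counting interval of 0.608 to 2.93. A control-only peak 1826 bp upstream had 13 fragments and a fold of 3.86. Both sites lie within Plut, a long noncoding RNA gene beside Pdx1 (chr5:147228598-147271521). The Ins1 site was 363 kb upstream of that insulin gene, with 24 fragments in control and 31 in knockout, folds of 5.35 and 9.72 and a scaled ratio of 1.72 (0.980 to 3.07). No peak was nearest to the other 28 beta cell genes.

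The other lists had at most 2 genes nearest to a peak. Neurog3 was the 1 of 22 endocrine development genes near a peak, in control. Of 15 other endocrine genes, Irx2, an alpha cell homeobox gene, and Pou3f4, an alpha cell POU factor gene, were nearest to knockout-only peaks at 235 kb (10 fragments, fold 4.46), 310 kb (15, 7.19) and 201 kb (10, 4.94), the last pair both for Pou3f4. Cftr, the chloride channel of duct cells, held a knockout-only peak (18 fragments, fold 8.54), and the amylase gene Amy2b was 1242 kb from a control-only peak (27, 2.98). Syt1, a calcium sensor of exocytosis, was 77.6 kb from a knockout-only peak (17, 5.14). Of the 22 stromal, vascular and immune genes, Cd96 was the 1 near a peak. Among 28 SWI/SNF subunit genes and 14 genes of pancreatic neoplasia, 0 were nearest to a peak of either list.

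Shares by position relative to genes had overlapping intervals across classes. Peaks inside a protein-coding gene span made up 29 of 147 control-only (19.7%), 20 of 94 shared control (21.3%) and 64 of 270 knockout-only peaks (23.7%). Inside or within 5 kb, the shares were 29.9% (22.7% to 38.0%), 24.5% (16.2% to 34.4%) and 29.3% (23.9% to 35.1%). Peaks over 50 kb from any protein-coding gene were 29.9%, 38.3% and 41.5% in that order. Predicted Gm genes were the nearest gene of 22.4% of control-only, 26.6% of shared control and 14.1% of knockout-only peaks, and make up 5.05% of all protein-coding genes. Olfactory and vomeronasal receptor genes were nearest to 2.04%, 1.06% and 2.59%, and make up 6.78%. Shares of peaks are set here beside shares of genes, which are unlike units. A gene nearest to several peaks counts once for each, such as Gm21149 with 7 control-only peaks. These gene families were chosen after the values were seen.

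Chromosome X held a larger share of list-only than of shared peaks in both genotypes. It carried 38 of 147 control-only peaks (25.9%, 18.99% to 33.7%) and 54 of 270 knockout-only peaks (20%, 15.4% to 25.3%), but 7 of 94 shared control peaks (7.45%, 3.05% to 14.7%). X makes up 6.49% of the length of these chromosomes, taken as the largest gene end of each. With peaks within 100 kb merged into regions, which removes the weight of runs, the shares were 26.3% control-only, 14.8% shared and 19.7% knockout-only. The shared value then lay above its unmerged interval. No intervals were computed for the merged shares, so whether the classes stay apart after merging was not tested. Of the X peaks, 7 of 45 in control (15.6%) and 7 of 61 in knockout (11.5%) were shared.

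**Figure D5:**
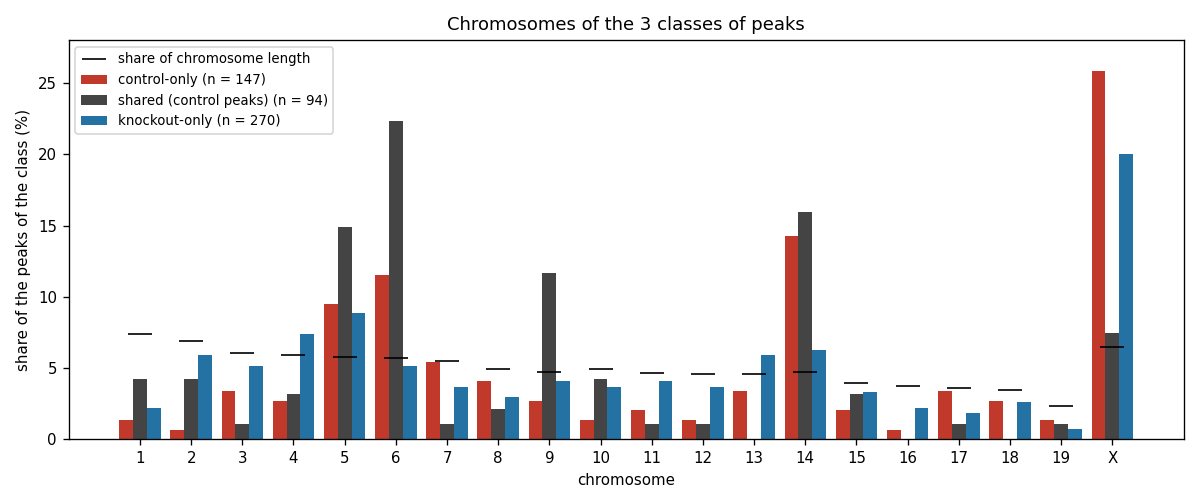
Percent of the peaks of each class on each chromosome, with dashes for the share of chromosome length (taken as the largest gene end). Chromosome X holds 25.9% of control-only and 20% of knockout-only peaks and 7.45% of shared control peaks, and chromosome 6 holds 22.3% of shared control peaks.

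List-only peaks of all chromosomes had median pileups of 16 in control and 13 in knockout and median folds of 4.69 and 4.93. Those of X had similar values, with median pileups of 14 and 11 and median folds of 4.55 and 4.50. Btbd35f genes, a multicopy X-linked family, were nearest to 12 of the 38 control-only and 13 of the 54 knockout-only peaks there, and Spin2 or Spin4 genes to 7 and 3. These families too were picked after the values were seen. Over all chromosomes, control-only peaks had 105 distinct nearest genes and knockout-only peaks 232. Of these, 26 genes were nearest to both a control-only and a knockout-only peak, and 15 of the 26 had no shared peak. An example is 4932411N23Rik, with 4 control-only and 2 knockout-only peaks. The 7 shared X sites were nearest to Cypt1, Btbd35f29, Pls3, Gm52435, Phka1, Pcdh19 and Mid1. Their pileups in control were 20, 16, 12, 33, 18, 16 and 47 fragments, and in knockout 30, 11, 12, 42, 15, 22 and 56. Knockout was higher at 4 of the 7 without scaling, equal at Pls3 and lower at Btbd35f29 and Phka1. After depth scaling, Btbd35f29 was the 1 with a ratio below 1 (0.918). Phka1, a phosphorylase kinase subunit gene, was the 1 of the 7 with its shared peak inside the gene.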

How the data were processed

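Peaks from 1 ChIP-seq library per genotype (control and Arid1a knockout, islets) were analysed; the HDAC6 list was only counted. The authors called each list against a no-IP sample (no immunoprecipitation), per the file headers and peak names. The submitters' processing notes name build mm10, edgeR 3.4.6, bedtools, Bowtie2 2.2.6, Bowtie and cutadapt. The peak caller and the roles of those tools are not given in the sources used here. The deposited pileup is an unscaled signal, the number of fragments at the summit, per the file headers. The deposited fold enrichment is a ratio to the local background. The authors also deposited −log10 p and q-values.

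The background was recovered as (pileup + 1) / fold − 1. A Poisson p from it was within 1% of the deposited −log10 p for 237 of 250 control and 363 of 384 knockout peaks. Reads per library are not in the lists, so the smallest background of each list served as relative depth. Genes came from RefSeq GRCm38.p6, and each peak took the nearest protein-coding span. Python 3.11.15, pandas 2.3.3, scipy 1.17.1 and bedtools 2.31.1 were used. In 5 checks on simulated data, the overlap, merging and nearest-distance functions matched bedtools and the median interval reached its set coverage.

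Named peaks are the 10 of highest fold per class (shared by control fold), the 5 highest and 5 lowest pair ratios at background under 10, every peak nearest to, inside or within 5 kb of a listed gene, and the 3 runs (within 100 kb) with most control peaks. Some peaks that this rule names are not reported here. The members and gene lists were chosen with earlier results of these data known. Other overlap rules, q limits, background limits, scalings and distances were tried as alternatives.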

Additional observations from a re-analysis of the deposited data

How the results depend on the processing

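Over 32 results, 122 alternatives were computed: 105 were counted as keeping the value, 16 as moving it and 1 as reversing it. For results with an interval, a kept value was one that stayed within that interval. The counts of nearest genes, and of the 10 highest control folds that overlap a knockout peak, had no interval. Their alternatives were judged by the size of the count alone. The median knockout to control ratio fell to 0.852 with no scaling. With summits within 200 bp as the rule, 32.0% of control and 21.1% of knockout peaks were shared, and with peaks within 100 kb merged 20.2% of knockout regions were. At a q-value of at most 0.01 the knockout-only median fold was 5.21. The control-only share near genes was 20.4% within 1 kb. Within 50 kb the shares were 70.1% for control-only, 61.7% and 62.1% for shared (control and knockout list) and 58.5% for knockout-only, and merged shared regions gave 35.2% and 37.0% within 5 kb. Counting only genes within 50 kb left 98 control, 163 knockout and 47 common nearest genes. The X share of shared peaks was 14.8% in both lists after merging, an alternative added after seeing the data. Shared medians stayed above list-only medians for pileup, length, fold and background in both lists under the 4 alternatives tried for each. No paired analysis was possible because each genotype had 1 library. Depth is known only through the smallest background, a called peak list holds no signal where no peak was called, and 1 library per genotype cannot separate genotype from library.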

Other observations

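The sequences outside chromosomes 1 to 19 and X held 9 control and 19 knockout peaks. Chromosome Y had 1 control peak, which was shared (42 fragments, fold 9.61), and 6 knockout peaks, with folds of 4.49 to 11.6. Mitochondrial DNA had 1 control peak and 2 knockout peaks with folds of 1.23 to 1.51 over backgrounds of 876 to 933 fragments. Unplaced contigs had 7 control peaks, all shared, and 11 knockout peaks, of which 6 were shared. Knockout contig peaks had folds up to 14.8.

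Among the 10 shared sites of highest control fold, those outside the Hrh1 to Atg7 gap differed in their distance to a gene. The site nearest to Iftap was 1322 kb away, with 43 fragments in control and 29 in knockout and folds of 12.1 and 9.72. A site 21.5 kb from Crp had folds of 9.41 and 14.3. The site nearest to Tbc1d2b, a Rab GTPase-activating protein gene, had 32 and 17 fragments and folds of 9.11 and 5.14, and the site inside Gm51598 had 28 and 15 fragments and folds of 9.36 and 6.53.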
